A study of Rattus norvegicus with 6 samples.

Results

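The genes described here encode cytochrome P450 enzymes, aldehyde dehydrogenases and the glutathione, sulfo and glucuronosyl transferases, which together oxidise and conjugate fat-soluble compounds. They were taken by symbol from the array annotation: every probe set with a single symbol that began with Cyp and a digit, Gst, Ugt1, Ugt2, Sult or Aldh, leaving out Cyp2f4, Aldh1a1, Aldh1a2, Aldh1a3 and Aldh3a1. This gave 127 probe sets for 113 of the 14217 named genes, and a gene with several was read from its brightest one by 6-array mean. The 113 were 57 P450 genes, 13 aldehyde dehydrogenases, 21 Gst genes, 14 Sult genes and 8 Ugt2 genes. Probe sets shared by several genes, 12 of them, were not used, and they include both UGT1A probe sets, so no Ugt1 gene is described. The label covers the P450 and transferase genes, whereas the aldehyde dehydrogenases are neither, and Gstcd is included by its symbol alone.

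The samples were from male Sprague-Dawley rats, outbred animals that received surgery at 4 weeks of age. The upper molars nearest the front were removed on both sides, a titanium alloy implant was set in the left socket only, and tissue was taken 4 weeks later. Peri-implant soft tissue came from the left side (3 arrays) and oral mucosa healed over the empty socket from the right (3 arrays), so implant and side of the mouth cannot be told apart, and both groups had lost the tooth. Whether the 3 arrays of a tissue stand for different animals is not given in the labels. The p-values therefore measure spread between arrays, which may be technical.

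P450 enzymes are haem proteins that add oxygen to drugs, fatty acids, sterols and vitamins, and they take electrons from P450 reductase and cytochrome b5 in the endoplasmic reticulum or from ferredoxin in mitochondria. Aldehyde dehydrogenases turn reactive aldehydes into acids, and the transferases then join glutathione, sulfate or glucuronic acid to the product so that it can leave the cell. The liver is the best known site, but oral and skin epithelium carry their own members, among them enzymes for retinoic acid, sulfated cholesterol and lipid aldehydes.

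Peri-implant tissue had higher signals for several glutathione transferases, aldehyde dehydrogenases and CYP2 enzymes, while the retinoic acid hydroxylase gene Cyp26b1 fell most among the members tested. Gstm2, a mu-class glutathione transferase, was 2.94-fold higher, Gsta3l1 of the alpha class 2.72-fold, Aldh1l1 of folate metabolism 2.73-fold and Cyp2j10 of the arachidonic acid epoxygenase family 2.51-fold. Cyp26b1 was 2.23-fold lower. These are ratios of signals on a linear scale, 3 arrays against 3, and all 5 passed an adjusted threshold of 0.05 in limma. Values below are log2 signals, differences are peri-implant minus mucosa, and each p is limma's, adjusted over all probe sets tested.

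Many members gave little signal in either tissue. Signals under 5.90, the 40th percentile over single values, are called dim, and 46 of the 113 genes were dim on all 6 arrays. Only probe sets with a mean over 6 arrays above 5.68 were tested, which 55 members reached and 58 did not. Those 58 had means of 0.89 to 5.54 and included 35 of 57 P450 genes, 10 of 14 Sult genes and 7 of 8 Ugt2 genes, but 1 of 13 aldehyde dehydrogenases and 5 of 21 Gst genes. Cyp1a1 and Cyp1a2, classic targets of the aryl hydrocarbon receptor, were among them, with means of 1.42 and 2.01 in peri-implant tissue and 1.95 and 4.34 in mucosa, and no difference was tested for them. Without the filter, Cyp2c23 was the single untested member called, at 5.08, 4.98 and 5.36 against 2.43, 0.37 and 0.054, all of them dim.

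**Figure D1:**
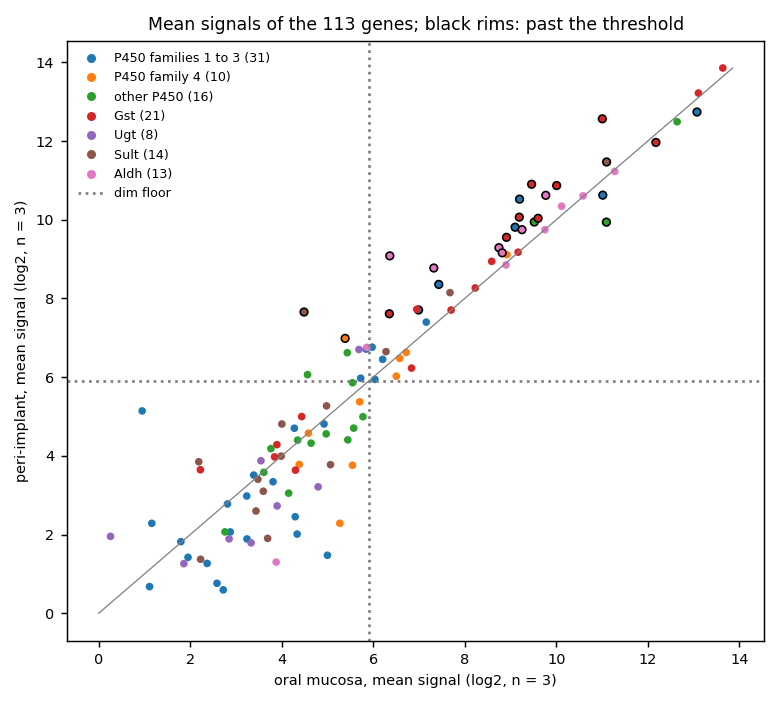
Mean log2 signal of each of the 113 genes in oral mucosa (x axis) and peri-implant tissue (y axis), 3 arrays each, coloured by family with the number of genes in brackets; dotted lines mark the dim floor of 5.90, the diagonal marks equal signals, and black rims mark genes past the adjusted threshold. Most Ugt2, Sult and P450 genes lie in the dim corner at lower left, and most rimmed points lie above the diagonal.

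Of the 55 members tested, 21 were called higher and 4 lower in peri-implant tissue, and 30 were not called. Those shares are 38.2% and 7.27%, beside 15.2% and 11.0% of all 10585 genes tested, or 26.1% in either direction. Arrays of the 2 tissues did not overlap for 35 of the 55 (63.6%), beside 41.9% of all genes. Among the tested members 4, Cyp4v3, Cyp27a1, Cyp39a1 and Sult1b1, reached the filter only through their peri-implant signal, and without them 19 of 51 were higher. Over all 113 genes, dim ones included, the median difference was 0.02, as it was over all 14217 genes. Among the 47 members above the floor in both tissues 34 differences were positive, with a median of 0.34 against 0.03 for all 9945 such genes. Leaving out single arrays gave 14 to 22 higher and 2 to 3 lower members, with 2 lower without mucosal array 1. Without the variance trend the counts were 16 and 2.

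**Figure D2:**
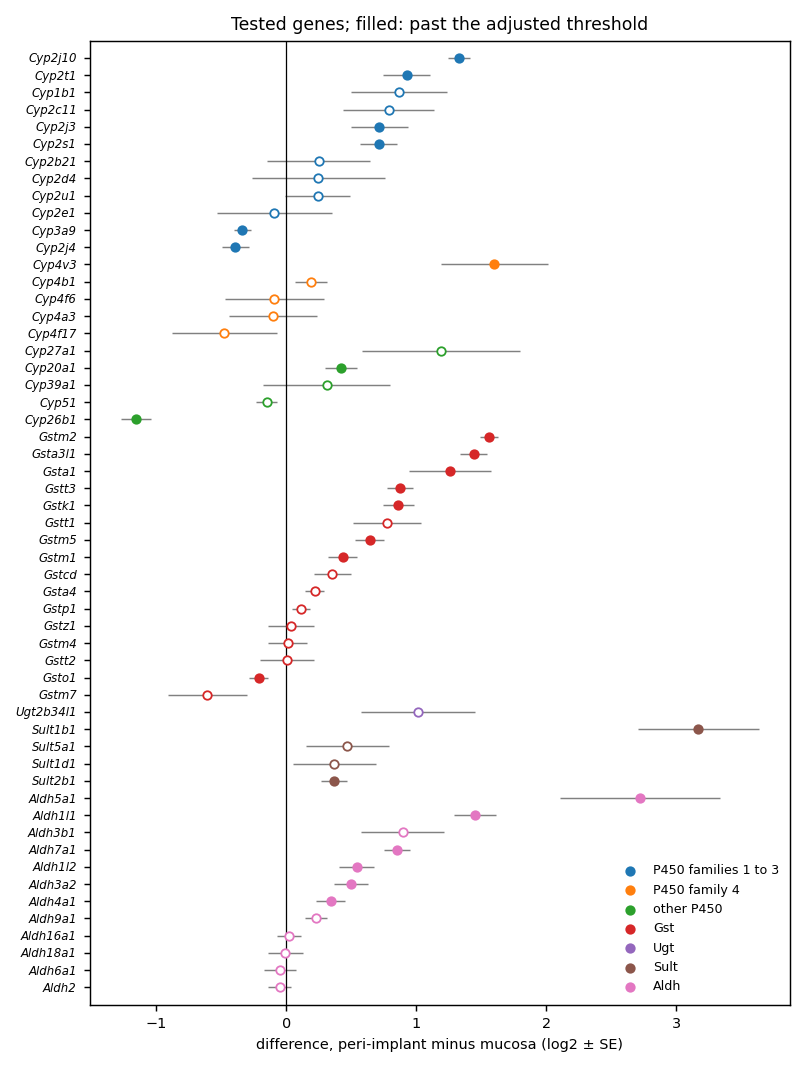
Difference in log2 signal, peri-implant minus mucosa, with the standard error of the limma fit, for the 55 tested members ordered by family; filled points passed the adjusted threshold and open points did not. Filled points number 7 above and 1 below 0 among Gst genes, 6 and 0 among Aldh genes, and 6 and 3 among P450 genes. Of all genes tested, 15.2% were higher and 11.0% lower. The families were not tested against each other.

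Some cell marker lists also differed between the tissues. As a background for the counts, 15.2% of all genes tested were higher and 11.0% lower. All 10 measured leukocyte markers were higher, with mean list signals of 9.77 to 9.82 against 7.53 to 7.76. Cd74 of antigen-presenting cells was higher by 3.15, the pan-leukocyte gene Ptprc by 1.69 and the T cell gene Cd3g by 2.30. Fibroblast markers were lower in 6 of 8 (10.78 to 10.89 against 11.35 to 11.40), Col1a1 by a fall of 0.83 and Col3a1 by one of 0.83, with 1 higher. Keratinocyte markers were lower in 3 of 9 and higher in 1 (14.92 to 15.24 against 15.00 to 15.31). The basal keratin gene Krt5 fell by 0.50, whereas another keratin gene, Krt1, was higher by 1.14. Endothelial markers were higher in 1 of 6 tested (16.7%), a share near that of all genes. Sebaceous or lipid cell markers were higher in 3 of 5 tested, with 2 of 7 too dim to test, and 0 were lower in both lists. The mean over 7 hepatocyte markers was 4.62 to 5.32 against 4.55 to 4.93. Of these, Alb, Apoa1, Fgb and Apob had dim means in both tissues, with albumin, Alb, at 3.61 and 3.01. Serpina1 was above the floor on all 6 arrays (7.97 and 7.87, not called), Ttr was at 5.86 and 6.27 (not called), and Hp was higher, at 6.81 and 4.65. Hp reached the filter only through its peri-implant signal, and with values raised to the floor its difference was 0.91. The same filter limit held for Cd3e of the leukocyte list and Alpl of the bone and cartilage list, both called higher. Lists for skeletal muscle (0 higher and 0 lower of 1 tested), salivary gland (1 and 2 of 3), airway epithelium (1 and 1 of 5), olfactory mucosa (0 and 1 of 3) and bone and cartilage (1 and 2 of 5) had few tested members. Mean list signals were 4.23 to 4.75 against 4.94 to 5.83 for muscle and 4.10 to 4.73 against 5.30 to 5.48 for salivary gland. In each of these 2 lists 6 of 9 genes had dim means in both tissues. The untested muscle gene Acta1 was above the floor on the mucosal arrays only, with means of 2.87 and 6.93. In bulk tissue a change in the number of cells of a type and a change in RNA per cell cannot be told apart. The part of these cell types in the results below was not tested.

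Among P450 families 1 to 3, which hold most drug-metabolising forms, 12 of 31 genes were tested, 4 were higher and 2 lower. Those shares were 33.3% and 16.7% of the genes tested in these families, beside 15.2% and 11.0% of all genes tested. Cyp2j10 gave 10.54, 10.50 and 10.53 on the peri-implant arrays and 9.22, 9.21 and 9.16 on the mucosal ones. All peri-implant values lay above all mucosal ones, and the difference of 1.33 (SE 0.09, adjusted p = 1.52e-07 in limma) was many times the spread within a group. Cyp2t1, a little studied relative, was higher by 0.92 (SE 0.18), at 8.15, 8.43 and 8.50 against 7.50, 7.37 and 7.43. Cyp2s1, a P450 of surface epithelia, was higher by 0.71 (SE 0.15), at 9.88, 9.72 and 9.83 against 9.46, 8.81 and 9.03. Cyp2j3 was higher by 0.72 (SE 0.22, adjusted p = 0.0343 in limma). Its call was lost in 7 of 13 alternatives, among them the fits without peri-implant array 1, 2 or 3 (differences 0.78, 0.63 and 0.74) and without mucosal array 2 or 3 (0.71 and 0.65), with limma adjusted p from 0.0161 to 0.154. Its second probe set was also higher, by 1.28, or by 0.79 with values raised to the floor. That probe set reached the filter only through its peri-implant signal.

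Cyp3a9, a steroid-hydroxylating member of the CYP3A family, fell by 0.34 (SE 0.07, adjusted p = 0.00252 in limma). The peri-implant arrays gave 12.72, 12.74 and 12.76 and the mucosal arrays 13.08, 13.09 and 13.07. This 1.26-fold change was small, but replicates lay within 0.024 and 0.007 (SD) of their means. Cyp2j4 fell by 0.39 (SE 0.10), from 11.21, 10.90 and 10.95 in mucosa to 10.79, 10.61 and 10.47. Its call was lost without peri-implant array 3 (a fall of 0.32), without mucosal array 1 (a fall of 0.30) and without the variance trend, with limma adjusted p from 0.00496 to 0.107 over all alternatives. Cyp1b1, a P450 of oestrogen and arachidonic acid metabolism that the aryl hydrocarbon receptor induces, was not called at 6.71 ± 0.14 against 5.85 ± 0.57 (SD, n = 3 each; limma adjusted p = 0.117). The difference was 0.87 in all and 1.20 once mucosal array 1 was left out, which passed (limma adjusted p from 0.0425, in that fit, to 0.269). Both mucosal values kept in that fit, 5.50 and 5.53, were dim. Setting dim signals to 5.90 on all arrays reduced the Cyp1b1 difference to 0.61, which was not called. The other tested members, Cyp2c11, Cyp2b21, Cyp2d4, Cyp2u1 and Cyp2e1, had differences of 0.79, 0.25, 0.25, 0.24 and -0.09 and were not called.

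P450 family 4, the fatty acid omega-hydroxylases, had 5 of 10 genes tested and 1 called (20%, beside 26.1% of all genes tested). The called gene, Cyp4v3, reached the filter only through its peri-implant signal, and without it 0 of 4 were higher. Cyp4v3 was higher by 1.60 (SE 0.41), or by 1.09 with dim values raised to the floor. Peri-implant arrays gave 6.94, 7.13 and 6.89, and mucosal arrays 4.53, 5.90 and 5.74, so that mucosal array 1 stood lowest. Without peri-implant array 2 the difference was 1.53 and the call was lost (limma adjusted p = 0.0609, within 0.00179 to 0.0609 over its alternatives). Cyp4b1, a P450 found mainly outside the liver, stood at 9.11 ± 0.15 against 8.92 ± 0.09 (SD, n = 3 each) and was not called (limma adjusted p = 0.314). Cyp4f6, Cyp4a3 and Cyp4f17 differed by -0.09, -0.10 and -0.48 with overlapping arrays and were not called.

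The other P450 genes act on sterols, bile acids, vitamin D and retinoic acid, and 5 of 16 were tested. Cyp26b1, which inactivates retinoic acid, fell by 1.16 (SE 0.11, adjusted p = 7.08e-06 in limma). It was at 9.81, 10.04 and 9.98 in peri-implant tissue and at 11.04, 11.35 and 10.90 in mucosa, so the groups stood about 1 unit apart without overlap. Its second probe set fell by 0.97. Cyp26a1, of the same function, was dim, with means of 4.40 and 4.35. Cyp20a1, an orphan P450 without an established substrate, was higher by 0.42 (SE 0.12). That call was lost without peri-implant array 2 or 3 (0.42 and 0.32), without mucosal array 2 or 3 (0.37 each) and without the variance trend, with limma adjusted p from 0.0139 to 0.12. Cyp51, lanosterol demethylase of cholesterol synthesis, was not called at 12.51, 12.51 and 12.46 against 12.67, 12.49 and 12.77. Its other probe set fell by 0.33, and the mean of both fell by 0.24 and passed (limma adjusted p = 0.0275, within 0.0275 to 0.474). Cyp27a1, sterol 27-hydroxylase, differed by 1.19 (limma adjusted p = 0.193), with mucosal values of 5.47, 3.93 and 6.90 that spread over more than the difference. Without mucosal array 3 its difference was 1.92 and passed (limma adjusted p = 0.02, within 0.02 to 0.556). Both mucosal values left in that fit, 5.47 and 3.93, were dim. With all arrays kept, flooring the dim signals cut the Cyp27a1 difference to 0.39, which was not called. This gene reached the filter only through its peri-implant signal. Cyp39a1 differed by 0.31 and was not called.

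Aldehyde dehydrogenases were higher in 6 of 12 tested genes (50%) and lower in 0, beside 15.2% and 11.0% of all genes tested. Both 10-formyltetrahydrofolate dehydrogenases were higher, the cytosolic Aldh1l1 by 1.45 (SE 0.16) and the mitochondrial Aldh1l2 by 0.54 (SE 0.13). Aldh1l1 gave 8.79, 8.83 and 8.71 against 7.44, 7.25 and 7.28 (limma adjusted p = 2.72e-05), a gap far wider than either group. Aldh7a1, which acts in lysine breakdown, was at 10.59, 10.58 and 10.69 against 9.57, 9.82 and 9.92, higher by 0.85 (SE 0.10). Aldh5a1, succinate semialdehyde dehydrogenase of the GABA pathway, had the largest difference of this family, 2.72 (SE 0.62, limma adjusted p = 0.00617). Its peri-implant values were 9.11, 9.20 and 8.94 and its mucosal values 7.40, 4.27 and 7.43, so mucosal array 2 carried much of the difference. Without that array the difference was 1.67 (limma adjusted p = 9.91e-06), and with values raised to the floor it was 2.18. The call was lost without the variance trend and with the robust fit (limma adjusted p = 0.0872 and 0.0653, within 9.91e-06 to 0.0872). A second tested probe set of Aldh5a1 was higher by 1.67, or by 1.44 with values raised to the floor, as its mucosal mean of 5.85 was dim. Another probe set of this gene was too dim to test.

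Aldh3a2, fatty aldehyde dehydrogenase, was higher by 0.50 (SE 0.13). Its call was lost without peri-implant array 2 (0.36) and without the variance trend (limma adjusted p from 0.00471 to 0.0958). Aldh4a1 of proline breakdown was higher by 0.34 (SE 0.11), just inside the threshold (limma adjusted p = 0.0486), and lost its call in 13 of 14 alternatives. Leaving out any one array did so, with differences of 0.31 to 0.37 and limma adjusted p of 0.0755 to 0.148. Aldh3b1 was not called (0.90, limma adjusted p = 0.0614) but passed with the floor (0.82) and without the variance trend (limma adjusted p from 0.00532 to 0.16). Aldh9a1 of carnitine synthesis differed by 0.23 without overlap and missed the threshold (limma adjusted p = 0.0723). Aldh2, the mitochondrial enzyme for acetaldehyde, gave 11.24, 11.34 and 11.11 against 11.37, 11.12 and 11.35, with overlapping arrays and a difference of -0.05 (SE 0.09). Aldh16a1, Aldh18a1 and Aldh6a1 were likewise not called, with differences of 0.021, -0.0067 and -0.05.

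Glutathione transferases had 16 of 21 genes tested, of which 7 were higher (43.8%) and 1 lower (6.25%), beside 15.2% and 11.0% of all genes tested. In the mu class, Gstm2 gave 12.55, 12.55 and 12.59 in peri-implant tissue and 11.02, 10.96 and 11.04 in mucosa. The difference of 1.56 (SE 0.07) had the smallest p of all members (limma adjusted p = 3.31e-09), and no array came near the other group. Gstm5 was higher by 0.64 (SE 0.11) and Gstm1 by 0.43 (SE 0.11). The call for Gstm1 was lost without peri-implant array 2 (0.38), without mucosal array 1 (0.33) and without the variance trend (limma adjusted p from 0.00744 to 0.0795). Gstm4 was at 9.13, 9.14 and 9.26 against 9.43, 8.79 and 9.28, overlapping and not called. Gstm7 was not called with a difference of -0.61 (SE 0.31, limma adjusted p = 0.186), although its arrays did not overlap.

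In the alpha class, Gsta3l1 gave 10.77, 10.95 and 11.00 against 9.27, 9.55 and 9.56, higher by 1.44 (SE 0.10, limma adjusted p = 3.97e-07). Gsta1 was higher by 1.26 (SE 0.32), at 7.83, 7.61 and 7.40 against 6.22, 5.85 and 6.99, with mucosal values that spread widely. Without peri-implant array 1 its difference was 1.15 and the call was lost (limma adjusted p = 0.055, within 0.00214 to 0.055). Gsta4, which clears the lipid peroxidation product hydroxynonenal, was at 13.91, 13.83 and 13.84 against 13.63, 13.60 and 13.69. This difference of 0.22 missed the threshold (limma adjusted p = 0.0548) but passed with quantile normalisation (0.32), the stricter filter, the robust fit and without mucosal array 3 (0.24), with limma adjusted p from 8.84e-04 to 0.183. Genes within the alpha class, and within the mu class, resemble each other closely in sequence, so their probe sets may also read a relative of the same class.

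Among the other classes, the theta gene Gstt3 was higher by 0.87 (SE 0.10), at 10.00, 10.13 and 10.07 against 9.34, 9.11 and 9.13. Gstt1 differed by 0.77 and missed the threshold (limma adjusted p = 0.0506), but passed in 5 of 13 alternatives, with 1.04 without mucosal array 3 (limma adjusted p from 0.00942 to 0.146). Gstt2 was at 7.56, 7.67 and 7.89 against 7.91, 7.44 and 7.75, fully overlapping. Gstk1, the kappa-class enzyme of mitochondria and peroxisomes, was higher by 0.86 (SE 0.12), at 11.02, 10.88 and 10.71 against 10.00, 9.77 and 10.26. Gstp1, the pi-class enzyme common in epithelia, was at 13.21, 13.22 and 13.23 against 13.15, 13.04 and 13.13, a difference of 0.11 that was not called except with quantile normalisation (0.21, limma adjusted p = 0.0109, within 0.0109 to 0.525). Gsto1, an omega-class enzyme that reduces dehydroascorbate, fell by 0.21 (SE 0.07) at a limma adjusted p of 0.049. The call did not hold in 9 of 14 alternatives, which include leaving out peri-implant array 1 or 2 (falls of 0.17 and 0.21) or mucosal array 1, 2 or 3 (falls of 0.23, 0.21 and 0.20), with limma adjusted p from 0.0303 to 0.177. Gstcd differed by 0.35 and passed only without mucosal array 3 (0.47, limma adjusted p = 0.0322, within 0.0322 to 0.246), and Gstz1 of tyrosine breakdown differed by 0.037.

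**Figure D3:**
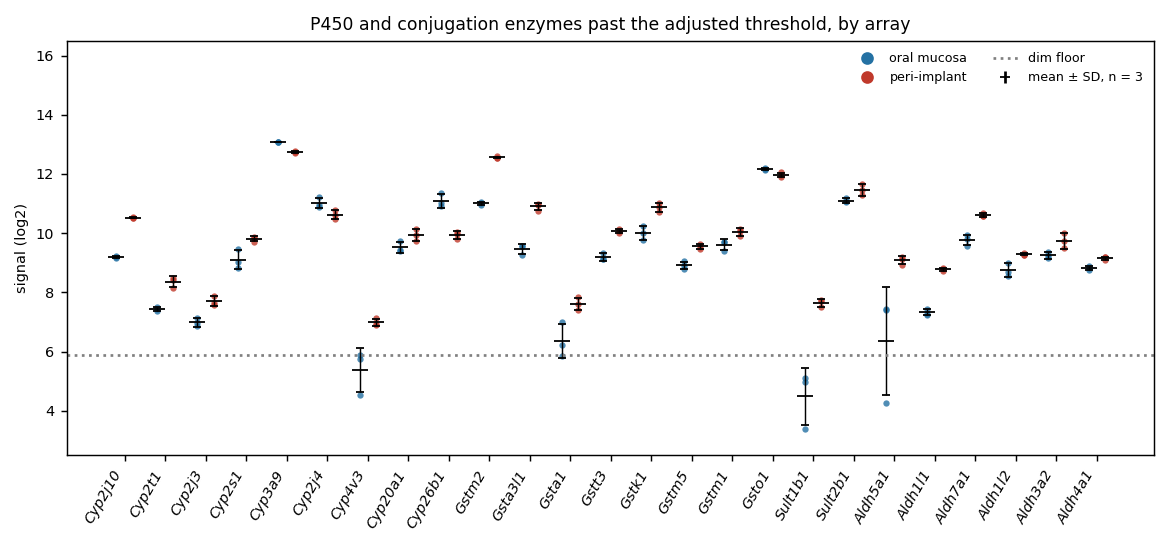
Log2 signal on each array for the 25 members past the adjusted threshold, with mucosal arrays on the left and peri-implant arrays on the right of each gene, bars at the mean with SD (n = 3) and the dim floor dotted. Gstm2 and Cyp2j10 show tight, separate groups, whereas Aldh5a1, Sult1b1 and Cyp4v3 each have 1 mucosal array well below the other two.

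Sulfotransferases had 4 of 14 genes tested and 2 higher (50%, beside 15.2% of all genes tested). Sult1b1, which sulfates phenols and thyroid hormones, was at 7.74, 7.50 and 7.73 in peri-implant tissue and at 5.11, 3.38 and 4.97 in mucosa. Every mucosal value was dim, so the difference of 3.17 (SE 0.46, limma adjusted p = 2.57e-04), 8.98-fold as deposited, became 1.76, or 3.38-fold, with values raised to the floor. Sult1b1 reached the filter only through its peri-implant signal, and without it 1 of 3 tested sulfotransferase genes was higher. Sult2b1, which makes cholesterol sulfate in stratified epithelium, was higher by 0.37 (SE 0.10), at 11.46, 11.67 and 11.27 against 11.04, 11.07 and 11.20. Its call was lost without peri-implant array 2 (0.27), without mucosal array 1 (0.34) and without the variance trend (limma adjusted p from 0.00163 to 0.115), while its second probe set was higher by 0.54. Sult5a1 and Sult1d1 differed by 0.47 and 0.37 and were not called. Of the Ugt2 genes, whose products add glucuronic acid, only Ugt2b34l1 was tested, at 6.76, 6.98 and 6.37 against 6.10, 4.72 and 6.25, a difference of 1.01 that was not called (limma adjusted p = 0.122). The next brightest, Ugt2b7, was dim on every array, with means of 3.21 and 4.80.

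Several members lie side by side in the genome as duplicated genes, and neighbours did not all change alike. On the RefSeq map of the rat (GRCr8), 112 members were placed, and 69 of them fell into 16 groups with at most 5 other protein-coding genes between members. The chromosome 5 group holds Cyp2j10, Cyp2j4 and Cyp2j3, of which the outer pair were higher and Cyp2j4 lower. The chromosome 2 group holds 7 Gstm genes, with 3 higher, 2 not called and 2 too dim to test. For 3 pairs of neighbours, chosen after their values were seen, the differences are set side by side as a description only, and no p is given for them. The difference of Cyp2j10 exceeded that of Cyp2j4 by 1.72, that of Gstm2 exceeded Gstm4 by 1.55, and that of Gstt3 exceeded Gstt2 by 0.87. Probe sets of such related genes, the Cyp2j and Gstt ones included, may also read a relative, which was not tested.

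**Figure D4:**
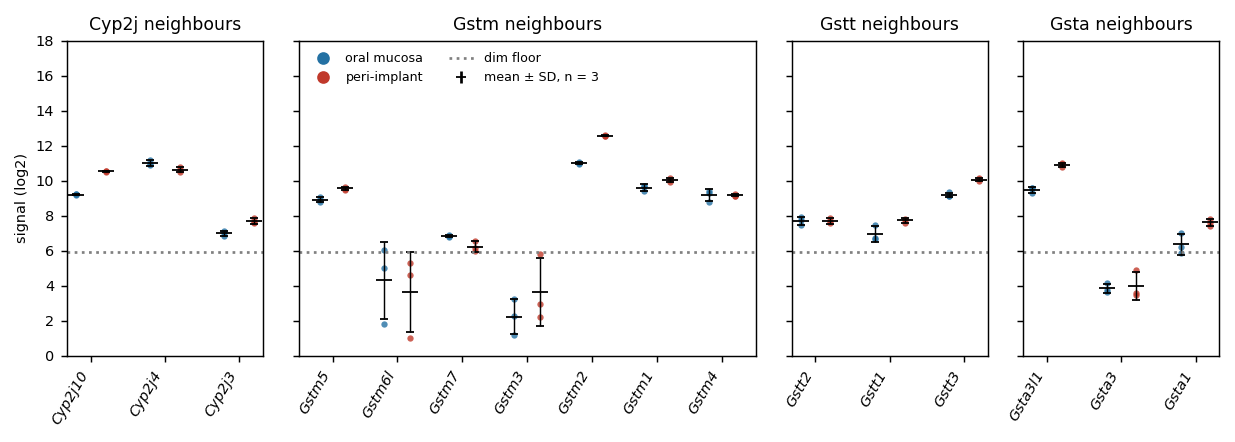
Log2 signal on each array for 4 groups of neighbouring genes in chromosome order, with mucosal arrays on the left and peri-implant arrays on the right of each gene, bars at the mean with SD (n = 3) and the dim floor dotted. Cyp2j10 rises and Cyp2j4 falls within one group, and Gstm2 separates widely where Gstm4 overlaps.

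Promoters are shown for the Cyp2j and Gstm pairs, as neighbours with unlike differences, and for Cyp26b1, as the largest fall among tested members; the Gstt pair is not shown. Each is the 250 bases before the annotated start, from RefSeq, build GRCr8, 5′ to 3′ on the gene's strand. They are chr5:116110810-116111059, chr5:116323043-116323292, chr2:198316918-198317167, chr2:198373384-198373633 and chr4:118616177-118616426, all on the minus strand. Capitals mark 2 cores, searched on both strands: GCGTG, bound by the aryl hydrocarbon receptor with its partner, and TGACNNNGC, the antioxidant response core bound by NRF2.
Cyp2j10: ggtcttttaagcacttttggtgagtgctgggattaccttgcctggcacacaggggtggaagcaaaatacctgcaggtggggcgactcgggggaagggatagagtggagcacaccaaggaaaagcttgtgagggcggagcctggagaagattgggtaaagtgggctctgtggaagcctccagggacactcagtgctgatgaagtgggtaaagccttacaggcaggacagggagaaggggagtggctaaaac
Cyp2j4: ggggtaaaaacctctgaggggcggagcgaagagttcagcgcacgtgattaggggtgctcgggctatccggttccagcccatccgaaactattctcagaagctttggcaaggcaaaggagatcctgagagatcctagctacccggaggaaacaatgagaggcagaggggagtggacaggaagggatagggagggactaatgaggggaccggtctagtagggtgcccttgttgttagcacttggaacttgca
Gstm2: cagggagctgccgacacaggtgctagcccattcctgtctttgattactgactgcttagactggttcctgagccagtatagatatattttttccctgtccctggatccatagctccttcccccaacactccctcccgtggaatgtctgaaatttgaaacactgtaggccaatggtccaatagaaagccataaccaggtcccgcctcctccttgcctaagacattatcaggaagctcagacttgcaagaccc
Gstm4: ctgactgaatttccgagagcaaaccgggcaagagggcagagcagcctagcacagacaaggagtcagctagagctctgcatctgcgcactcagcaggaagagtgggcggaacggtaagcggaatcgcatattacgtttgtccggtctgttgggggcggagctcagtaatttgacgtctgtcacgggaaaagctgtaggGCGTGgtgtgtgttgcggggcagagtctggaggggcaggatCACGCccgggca
Cyp26b1: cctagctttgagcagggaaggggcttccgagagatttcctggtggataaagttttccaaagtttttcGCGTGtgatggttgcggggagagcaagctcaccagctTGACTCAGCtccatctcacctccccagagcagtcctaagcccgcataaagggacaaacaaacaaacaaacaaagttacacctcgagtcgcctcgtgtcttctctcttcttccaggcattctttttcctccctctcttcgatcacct

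Neither core was in the windows of Cyp2j10, Cyp2j4 or Gstm2, and GCGTG was in that of Gstm4 on both strands. Cyp26b1 held both cores, and the letters of its antioxidant core also contain those of an AP-1 site. The table of promoters matched 92 of the 113 members. GCGTG was in 22 of these (23.9%) and in 27.2% of all 27457 RefSeq promoters of the same length, and TGACNNNGC in 11 (12.0%) against 10.2%. Among members called higher, 6 of 19 held GCGTG and 2 of 19 TGACNNNGC, and among tested members not called the counts were 10 and 6 of 25. A match is a run of letters and not a measured site.

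Genes that supply, regulate or follow these enzymes were given as 5 lists with 100 entries, of which 93 were measured and 68 tested. Of the 68, 20 were higher (29.4%) and 8 lower (11.8%), beside 15.2% and 11.0% of all genes tested, so the lower share was near the background. Among receptors and regulators, 1 of 6 tested was higher (16.7%), a share near the 15.2% of all genes. This was Nfe2l2, which encodes NRF2, at 12.34, 12.38 and 12.30 against 11.75, 11.75 and 11.61 (a difference of 0.64, SE 0.07). Its inhibitor gene Keap1 was not called (0.10), and the receptor genes Ahr, Nr1i2 and Nr1i3 were too dim to test. Of 7 electron donors tested, 3 were higher (42.9%) and 1 was lower (14.3%). The reductase gene Por was higher by 0.41, the mitochondrial cytochrome b5 gene Cyb5b by 0.48 and the ferredoxin gene Fdx1 by 0.38, whereas Cyb5r3, cytochrome b5 reductase, fell by 1.05 (SE 0.08), from 10.81, 10.88 and 10.99 to 9.86, 9.84 and 9.84. Without the variance trend the calls for Por and Cyb5b were lost (limma adjusted p = 0.0659 and 0.0567, within 0.00579 to 0.0659 and 0.00148 to 0.0625), as was that for Cyb5b with the mean of its probe sets (0.27). Pgrmc1, a haem-binding partner of P450 enzymes, was not called (0.16).

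Other oxidising, reducing and hydrolysing enzymes were higher in 7 and lower in 4 of 24 tested genes. These shares were 29.2% and 16.7%, beside 15.2% and 11.0% of all genes tested. The flavin monooxygenase gene Fmo2 was higher by 1.02 (SE 0.08) and the carboxylesterase gene Ces1d by 0.78 (SE 0.08), and Akr1b8, an aldo-keto reductase, fell by 1.15 (SE 0.08), from 14.05 ± 0.10 to 12.90 ± 0.04 (SD, n = 3 each). Xdh, xanthine dehydrogenase, was higher by 0.27, a call lost in 5 of 14 alternatives, including those without peri-implant array 1, 2 or 3 (0.26, 0.28 and 0.25) and without mucosal array 2 (0.24), with limma adjusted p from 1.85e-04 to 0.094. Other conjugation enzymes and cofactor genes were higher in 5 and lower in 3 of 20 (25% and 15%). Ggt1, the surface enzyme that cleaves glutathione and its conjugates, was at 10.72, 10.87 and 10.62 against 7.87, 8.04 and 8.18, higher by 2.71 (SE 0.12) or 6.54-fold. Of the 3 microsomal glutathione transferase genes, Mgst2 was higher by 1.02 (SE 0.07) and Mgst1 by 0.59 (SE 0.07), and Mgst3 fell by 1.00 (SE 0.09). Transporters were higher in 4 (36.4%) and lower in 0 of 11. The organic anion carriers Slco2b1 and Slco2a1 were higher by 2.36 and 0.74 and the toxin extruder Slc47a1 by 1.54. The mucosal mean of Slco2b1, 5.88, was dim, and with values raised to the floor its difference was 2.04. The efflux pump Abcc5 was higher by 0.36. Abcc5 lost its call without peri-implant array 2 or 3 (0.36 and 0.31), without mucosal array 1 (0.25) and in 2 other alternatives (limma adjusted p from 0.00716 to 0.133). Slco2a1 was not called with the mean of its probe sets (0.77, limma adjusted p = 0.162, within 0.003 to 0.162).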

How the data were processed

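Per the labels' protocols, the GeneChip IVT Express kit made biotin-labelled RNA from 6 total RNA samples, reading transcripts near their 3′ end. The deposited log2 signals cover 31099 probe sets, 57 of them controls, 1 array per sample. The authors had scaled each array: after trimming 2% of probe sets from both ends, linear signals averaged 500.2 per array. For software and background correction, nothing was stated in the sources used here. Median signal per array was 6.62 to 6.78, and the number of arrays limits precision.

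The log2 values were used as deposited, so the planned pseudocount was not needed. The 18625 probe sets with a mean over 6 arrays above the 40th percentile were fitted with limma 3.58.1 in R 4.3.3 (lmFit, eBayes with a variance trend), two-sided, with Benjamini-Hochberg adjustment over all of them; the fit was tested on simulated data. No detection calls were used. Symbols came from the array's annotation table, where 20832 probe sets had 1 symbol, 436 several and 9780 non-control probe sets none. Of the 20826 with 1 symbol that were not controls, 20758 matched GRCr8 by gene number.

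The genes and lists were chosen with earlier results of these data known. Named were all members called, the 2 with the highest mean signal in each family, members whose call changed in an alternative, up to 3 called genes per companion list with its brightest, and up to 3 genes of a marker list; other names were chosen after their values were seen. Alternatives were quantile normalisation, no filter and one at the 60th percentile, a floor for dim values, no variance trend, a robust fit, a replicate block, the mean of a gene's probe sets, and leaving out each array.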

Additional observations from a re-analysis of the deposited data

How the results depend on the processing

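Of the 25 members called, 14 kept their call in every alternative that gave a value: Cyp2j10, Cyp2t1, Cyp2s1, Cyp3a9, Cyp26b1, Gstm2, Gsta3l1, Gstt3, Gstk1, Gstm5, Sult1b1, Aldh1l1, Aldh7a1 and Aldh1l2. The other 11 lost it in at least 1 of up to 14. Among those that kept their call, Sult1b1 had reached the filter only through its peri-implant signal. The count of higher members was 14 to 22 and that of companion genes 14 to 21 higher and 7 to 9 lower. Lower members numbered 2 to 5 over all alternatives: 5 with the mean of a gene's probe sets, 2 without the variance trend and 2 to 3 with single arrays left out. The same-numbered arrays did not deviate together (correlations 0.013, -0.079 and 0.027), so the numbers were not taken as pairs; whether same-numbered arrays share a rat is not known. With the replicate number as a block 20 members were higher and 3 lower, and 21 and 7 companion genes. Of the uncalled members, 11 changed sign in some alternative and were called in no alternative. With quantile normalisation Gstz1, Gstm4, Gstt2 and Aldh16a1 were at -0.030, -0.037, -0.068 and -0.0056, and with the floor Cyp2d4 was at -0.045. Leaving out single arrays gave -0.38 to 0.75 for Cyp2d4, -0.43 to 0.16 for Cyp2e1, -0.49 to 0.20 for Cyp4f6, -0.36 to 0.18 for Cyp4a3, -0.13 to 0.16 for Gstz1, -0.18 to 0.14 for Gstm4, -0.13 to 0.11 for Gstt2, -0.074 to 0.094 for Aldh16a1, -0.15 to 0.13 for Aldh18a1, -0.11 to 0.025 for Aldh6a1 and -0.13 to 0.0076 for Aldh2. The cause was not tested. Dim signals left 58 members without a test.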
